A study of Mus musculus with 24 samples.

Results

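In small RNA from mouse cauda epididymosomes, mmu-mir-1961, then mmu-mir-1928, and after it mmu-mir-3535 carried the most reads of any miRNA hairpin. They were chosen by their read counts: of 1234 hairpin rows in the miRNA tables, those longer than 35 bases, they had the 3 highest totals over 24 libraries. Epididymosomes are vesicles shed into the lumen of the epididymis that pass RNA and protein to maturing sperm, and the cauda is the segment where sperm are stored. All mice were C57BL/6J males aged 7 to 8 weeks at the start, and all wore an implanted osmotic pump for 6 weeks. The control group received the vehicle, 50% DMSO. The DBP group received dibutyl phthalate at 2.5 mg/kg/day, the DEHP group di(2-ethylhexyl) phthalate at 2.5 mg/kg/day, and the mixture group both at 2.5 mg/kg/day each. Each group had 6 libraries, from 6 mice per the study's design text. Sperm were pelleted and removed before the vesicles were isolated with a column kit, so any vesicle of the fluid could contribute, and no step selecting vesicles of a given cell type is described.

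A miRNA gene is transcribed as a longer RNA that folds into a hairpin. Drosha and then Dicer cut the hairpin to a duplex, and an Argonaute protein keeps a strand of it as the mature miRNA, which pairs with target mRNAs mainly through its seed, bases 2 to 8. Cells and vesicles therefore usually hold far more of the mature strand than of the rest of the hairpin.

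The sequences of the hairpins and of their mature miRNAs are shown because the reads were counted on the hairpin rows and hardly at all on the mature rows. All 3 were found in RefSeq on GRCm38.p6, on the minus strand; they are written 5′ to 3′, and capitals in the hairpins mark the mature miRNA.

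mmu-mir-1961: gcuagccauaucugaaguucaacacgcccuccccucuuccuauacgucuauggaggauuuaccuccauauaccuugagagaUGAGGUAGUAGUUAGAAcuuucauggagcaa
mmu-mir-1928: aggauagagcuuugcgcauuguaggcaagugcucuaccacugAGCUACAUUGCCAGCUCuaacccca
mmu-mir-3535: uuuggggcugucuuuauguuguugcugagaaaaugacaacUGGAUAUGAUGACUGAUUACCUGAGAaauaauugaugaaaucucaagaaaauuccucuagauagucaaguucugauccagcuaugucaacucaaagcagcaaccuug

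The hairpin mmu-mir-1961 spans chr5:92788451-92788562 and is 112 bases long. It lies inside Shroom3, a gene for an actin-binding protein that shapes epithelial cells, on the opposite strand and without overlapping an exon. The hairpin mmu-mir-1928 is 67 bases long, spans chr1:74206554-74206620 and lies between genes. Its nearest annotated neighbours are an snRNA gene, Gm25524, at 6193 bases and the chemokine receptor gene Cxcr1 at 11923 bases. The hairpin mmu-mir-3535 is 147 bases long, spans chr1:86351981-86352127 and lies within Ncl on the same strand. Ncl encodes nucleolin, a nucleolar protein of ribosome assembly, and the hairpin overlaps only an exon of a retained-intron transcript of that gene.

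The mature miRNAs are shown with the seed in capitals, because the seed sets which family each would belong to, and with 4 mature miRNAs that share a seed with one of them.

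mmu-miR-1961: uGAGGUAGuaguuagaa
mmu-let-7g-5p: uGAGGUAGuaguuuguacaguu
mmu-let-7i-5p: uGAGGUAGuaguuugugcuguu
mmu-miR-1928: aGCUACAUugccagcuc
mmu-miR-221-3p: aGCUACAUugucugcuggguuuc
mmu-miR-222-3p: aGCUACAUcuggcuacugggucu
mmu-miR-3535: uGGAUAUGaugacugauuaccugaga

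The seed of mmu-miR-1961 is that of the let-7 family, which is known for restraining proliferation and timing development, and 10 other mature names of the RefSeq table carry it. With let-7g-5p and let-7i-5p the first 13 bases are the same. The seed of mmu-miR-1928 is shared with 2 other names, miR-221-3p and miR-222-3p, a pair known for targeting inhibitors of the cell cycle. No other of the 1679 mature names in that table carries the seed of mmu-miR-3535.

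Almost no reads were counted on the rows of these mature miRNAs. The hairpin rows held 1943192 reads for mmu-mir-1961, 1716964 for mmu-mir-1928 and 1679619 for mmu-mir-3535 over the 24 libraries. The mature row mmu-miR-1961 held 0 reads, and so did mmu-miR-1928. With 15273682 reads on miRNA rows in all, a count of 0 allows up to 3 reads, or 0.196 reads-per-million (RPM) of the class, for counting error only. The mature row mmu-miR-3535 held 72 reads, between 0 and 10 per library with a median of 2, and 15 of 24 libraries had any. Whether a read that lies wholly inside the mature stretch was counted on the mature row, the hairpin row or both is not stated in the labels.

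The excess of hairpin over mature reads held for the class as a whole, though not for every leading hairpin. Hairpin rows took 87.8% of miRNA class reads. Among the hairpins just outside the choice, mmu-mir-6240 had 1480426 reads beside 2729 on its mature row. The next, mmu-mir-2137, had 1156858 hairpin reads beside 1143908 mature reads. After it, mmu-mir-3060, had 726914 hairpin reads beside 2 mature reads. So among these 6 hairpins a single one had mature reads close to its hairpin reads, and it was not among the leading 3.

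**Figure D1:**
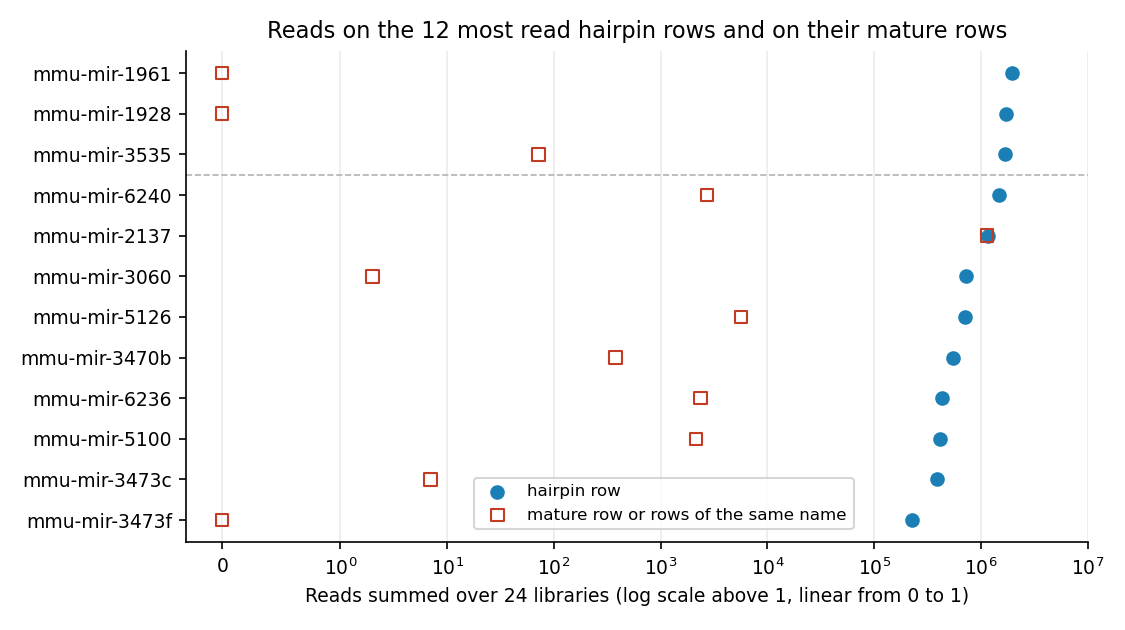
Reads summed over 24 libraries for the 12 most read hairpin rows (filled circles) and for the mature row or rows of the same name (open squares), on an axis that is logarithmic above 1 and linear from 0 to 1. The 3 hairpins above the dashed line have 0, 0 and 72 mature reads, and mmu-mir-2137 is the hairpin whose 2 symbols coincide.

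The mature miRNAs that share a seed with the members were also scarce. Of the 10 let-7 seed sharers, let-7c-5p had the most reads, 654 over all libraries and 10 to 51 per library. let-7a-5p had 424 reads, let-7g-5p 190 and let-7i-5p 78, while let-7k had 0. miR-221-3p had 38 reads, and miR-222-3p had 28. These counts on mature rows were far below the reads on the hairpin rows of the members, which are rows of another kind. Against the like rows, mmu-miR-1961 and mmu-miR-1928 with 0 reads each, every seed sharer except let-7k had more reads.

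The libraries held 7.94 M to 14.7 M reads over the 6 classes searched in order (miRNA, tRNA, piRNA, rRNA, circRNA and lncRNA), and the miRNA class made up 4.2 to 7.02% of them. Libraries numbered 1 to 3 of each group were run on lane 6 and libraries 4 to 6 on lane 7, as the names of the runs show. Libraries 5 and 6 of the groups mostly had higher normalization factors, which TMM scaling gives to each library. Their factors ran from 1.06 to 1.31 and those of libraries 1 to 4 from 0.626 to 1.09, so the ranges overlapped. For the markers that follow, RPM is taken of the reads of all 6 classes and not of the miRNA class. The miRNAs known as markers of epididymal epithelium (the miR-200 family) had 189 reads in all. They had 0.182 to 2.26 RPM over the libraries, with all 5 listed members read. Smooth muscle markers had 4440 reads (4.98 to 34.8 RPM, 4 of 4 read). Leukocyte markers had 158 reads (0.101 to 1.42 RPM, 4 of 4 read), sperm and testis markers 59 (0 to 0.855 RPM, 3 of 3 read), the liver marker 21 (0 to 0.446 RPM) and erythrocyte markers 10 (0 to 0.293 RPM, 1 of 3 read). Their part in any result below was not tested.

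Together the 3 hairpins took 34.5% ± 5.2 (SD, n = 24) of miRNA class reads, with a lowest library at 22.9% and a highest at 42.0%. Of all reads in the 6 classes they were 1.97% ± 0.48 (SD, n = 24). By group the 3 hairpins summed to 35.6% ± 5.5 of the class in controls, 32.5% ± 6.4 under DBP, 35.4% ± 5.4 under DEHP and 34.6% ± 4.0 under the mixture (SD, n = 6 each). These levels chose the members, so they are a description and no test is given.

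The order of the 3 was not the same from library to library. mmu-mir-1961 was the most read hairpin in 9 libraries, mmu-mir-3535 in 5 and mmu-mir-1928 in 4. In 10 of 24 libraries the 3 most read hairpins were exactly these. mmu-mir-1928 was never below rank 4, mmu-mir-1961 fell to rank 5 in 3 libraries, and mmu-mir-3535 to rank 6 in 2. The hairpin next in total, mmu-mir-6240, took 9.31% ± 6.59 (SD, n = 24) of class reads, from 2.10 to 25.4%. The member just inside, mmu-mir-3535, took 10.9% ± 2.8 (SD, n = 24), from 5.61 to 16.02%.

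Row lengths differ, and per base the order was another. mmu-mir-1928, the shortest of the 3, had 25626 reads per base of its row, the highest of all hairpins. mmu-mir-1961 had 17350 reads per base, just below mmu-mir-2137 with 17528. mmu-mir-3535 had 11426 reads per base, after mmu-mir-6240 with 12653. In RPKM, reads scaled to row length and library depth, the means were 93582 ± 30256 for mmu-mir-1928, 64157 ± 30286 for mmu-mir-1961 and 42605 ± 13158 for mmu-mir-3535 (SD, n = 24), and the ranges of the 3 overlapped. Since small RNA reads can pile up on a short stretch of a row, a level per base describes the row and not a molecule.

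The question of the study was whether adult exposure to the phthalates changes the RNA of epididymosomes. None of the 3 hairpins passed the test in any of 7 comparisons. Counts were fitted for 7454 features together with edgeR's quasi-likelihood test, with terms for group and lane. At a Benjamini-Hochberg adjusted p under 0.05, 0 of 7454 features (0%) were called in each of the comparisons, so that 0 of 3 members is also the background. At an unadjusted p under 0.05, edgeR gave 366 features under DBP, 218 under DEHP and 203 under the mixture, each against control, and no member was among them. DESeq2 also called 0 features at its adjusted p, and 390, 203 and 179 at an unadjusted p under 0.05.

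Against control, mmu-mir-1961 had the estimates farthest from 0 of the 3. Its counts-per-million values (CPM, scaled to TMM-adjusted totals) had a lowest, median and highest library of 4619, 7482 and 13272 in controls. Under DBP they were 2661, 5998 and 11952, under DEHP 2873, 6866 and 8277, and under the mixture 4807, 6179.6 and 10381. The groups overlapped widely, and 2 of 6 libraries of each exposed group lay above the control mean. The log2 fold change was −0.26 ± 0.29 (SE; 95% interval −0.85 to 0.33; adjusted p = 0.972) for DBP and −0.26 ± 0.29 (SE; −0.85 to 0.33; adjusted p = 0.999) for DEHP. For the mixture it was −0.19 ± 0.29 (SE; −0.78 to 0.40; adjusted p = 1.00). The intervals reach from a fall to 0.556 of the control level to a rise of 1.32 times, so changes of that size would not be told from none at this spread.

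mmu-mir-1928 overlapped just as widely between groups. Its CPM values had a lowest, median and highest library of 4459, 5704 and 12895 in controls, 4247, 5018 and 9116 under DBP, 3819.6, 7041 and 9517 under DEHP, and 3333, 5584 and 9433 under the mixture. A single control library, replicate 2, was far above the other 5. The log2 fold change was −0.08 ± 0.31 (SE; −0.72 to 0.55) for DBP, 0.06 ± 0.31 (SE; −0.58 to 0.69) for DEHP and −0.15 ± 0.31 (SE; −0.78 to 0.49) for the mixture. The adjusted p was 0.999, 0.999 and 1.00 in edgeR's quasi-likelihood test. Without control replicate 2 the direction for DBP turned, to 0.15, and that for the mixture to 0.09, neither past the threshold.

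mmu-mir-3535 had estimates near 0. Its CPM values had a lowest, median and highest library of 3203, 6347 and 8819 in controls, 3409, 5181 and 9042 under DBP, 4891, 5763 and 8053 under DEHP, and 4055, 5977 and 9468 under the mixture. The lowest value of all 24 libraries was a control, replicate 4. The log2 fold change was −0.10 ± 0.27 (SE; −0.65 to 0.45) for DBP, −0.03 ± 0.27 (SE; −0.58 to 0.52) for DEHP and −0.01 ± 0.27 (SE; −0.56 to 0.55) for the mixture. The adjusted p was 0.992, 0.999 and 1.00 in edgeR's quasi-likelihood test. In bulk RNA, fewer vesicles that carry a hairpin and less of it per vesicle cannot be told apart.

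**Figure D2:**
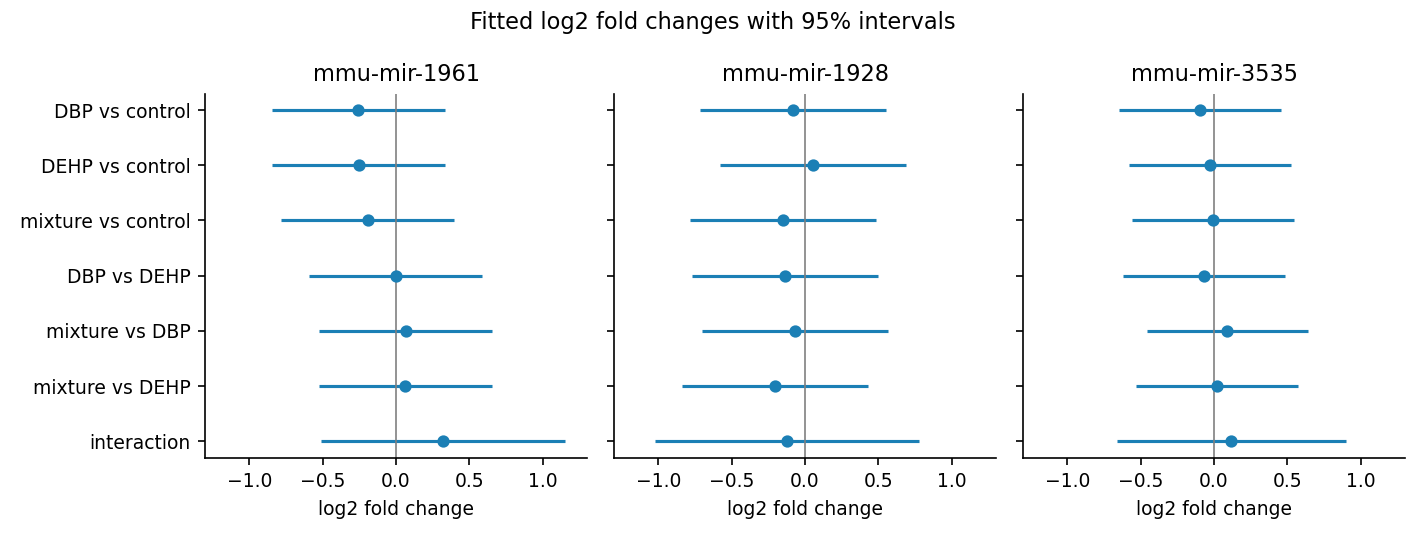
Fitted log2 fold change of each hairpin (points) with its 95% interval (lines) in the 7 comparisons, each fitted over 24 libraries. Every interval crosses 0, and the point farthest from 0 is the interaction of mmu-mir-1961 at 0.32.

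The study's design text names a looser criterion, a fold change of at least 1.5 with p under 0.01. Against control it was met by 54 features (0.724%) with DBP, 29 (0.389%) with DEHP and 31 (0.416%) with the mixture, and by 0 of the 3 members in each. Of the 191 hairpin rows tested, 0 rose and 0 fell at an adjusted p under 0.05. Their median log2 fold changes were −0.04, −0.02 and −0.03 in the order DBP, DEHP and mixture, beside −0.01, −0.02 and −0.02 over all tested features. The 10 most read hairpins had medians of −0.09, −0.23 and −0.14, with 3, 3 and 2 of 10 estimates above 0. The 55 mature rows tested had medians of 0.01, 0.01 and −0.04, and 0 were called. Of the 37 let-7 and miR-98 rows, 13 were tested and 0 were called, with medians of 0.01, 0.29 and 0.03.

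DBP and DEHP are diesters of phthalic acid that differ in their alcohols, a straight butyl chain in DBP and a longer branched chain in DEHP. They were compared at the same dose and time. The log2 difference of DBP from DEHP was −0.00 ± 0.29 (SE; −0.59 to 0.59) for mmu-mir-1961. It was −0.14 ± 0.31 (SE; −0.77 to 0.50) for mmu-mir-1928 and −0.07 ± 0.27 (SE; −0.62 to 0.48) for mmu-mir-3535. The mixture, with the full dose of both, had log2 estimates against DBP alone of 0.07, −0.07 and 0.09 in the same order, and against DEHP alone of 0.06, −0.20 and 0.02. None of these passed, at an adjusted p of 1.00 each over the 7454 features in edgeR. The comparisons that share a group also share its libraries.

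The interaction, the mixture's log2 level minus those of DBP and DEHP plus that of control, was 0.32 ± 0.40 (SE; −0.51 to 1.15) for mmu-mir-1961. It was −0.12 ± 0.44 (SE; −1.02 to 0.78) for mmu-mir-1928 and 0.12 ± 0.38 (SE; −0.66 to 0.90) for mmu-mir-3535. The adjusted p values were 0.996, 1.00 and 1.00 in edgeR's test. At an unadjusted p under 0.05, the 4 comparisons other than those with control gave 263 (DBP against DEHP), 284 (mixture against DBP), 222 (mixture against DEHP) and 301 (interaction) features with edgeR. DESeq2 gave 250, 263, 184 and 284, with 0 at its adjusted p.

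As a share of miRNA class reads, which does not depend on scaling across classes, the members did not pass either. mmu-mir-1961 took 13.6% ± 6.0 in controls, 11.6% ± 5.9 under DBP, 11.8% ± 3.8 under DEHP and 12.7% ± 4.6 under the mixture (SD, n = 6 each). mmu-mir-1928 took 11.1% ± 4.0, 10.6% ± 2.8, 12.2% ± 2.8 and 10.6% ± 3.2 in the same order. mmu-mir-3535 took 10.9% ± 3.1, 10.3% ± 3.8, 11.4% ± 1.9 and 11.3% ± 3.0. In exact two-sided permutation tests that exchanged labels within lane, the 9 differences from control had p between 0.410 and 0.795, and each had a Benjamini-Hochberg value of 0.795 over the 9. The 400 arrangements allow a smallest p of 0.005.

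Within lanes the differences in share were of either sign. For mmu-mir-1961 the DBP difference was −1.72 percentage points on lane 6 and −2.27 on lane 7, and the DEHP difference −0.27 and −3.39. For mmu-mir-1928 the DBP difference was −2.26 on lane 6 and 1.14 on lane 7. For mmu-mir-3535 the DBP difference was −2.26 and 1.04, and the mixture difference −1.25 and 2.11. With 3 libraries a group, the exact test cannot pass on a lane alone.

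Levels also differed between library numbers. As a share of the class, mmu-mir-1961 was higher in libraries 5 and 6 of every group. Its share of the class was 15.4 to 22.2% in those 8 libraries and 5.32 to 14.03% in the other 16, with no overlap. The means were 18.3% ± 2.5 (SD, n = 8) and 9.52% ± 2.47 (SD, n = 16), a ratio of 1.92. Library 4 of each group, on the same lane as 5 and 6, had 8.54 to 14.03%, below every library 5 and 6. By lane the mean share was 8.95% on lane 6 and 15.9% on lane 7 (n = 12 each). In CPM the step was smaller, with means of 9370 and 5701, and the ranges overlapped (7052 to 13272 against 2661 to 8737). On that scale both libraries 5 and 6 lay above every library 1 to 4 of their group in 2 of 4 groups, and library 4 of the groups (5167 to 8737 CPM) overlapped libraries 5 and 6. The step was noticed in these counts, and neither it nor the part of the lane in it was tested.

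mmu-mir-1928 went the other way. In CPM it averaged 4624 ± 872 (SD, n = 8) in libraries 5 and 6 and 7253 ± 2359 (SD, n = 16) in libraries 1 to 4, and 0 of the 8 lay above the median of the 16. In controls, DBP and the mixture, both libraries 5 and 6 lay below every library 1 to 4 of their group. Library 3 was the lowest of libraries 1 to 4 under DBP, DEHP and the mixture. In share of the class the ratio of means, libraries 1 to 4 over 5 and 6, was 1.32, and the ranges overlapped. Without TMM scaling the contrast was also smaller. In RPM of the 6 classes the mean was 5532 ± 955 (SD, n = 8) in libraries 5 and 6. It was 6639 ± 2332 (SD, n = 16) in libraries 1 to 4, with overlapping ranges.

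mmu-mir-3535 overlapped between these sets on both scales. Its mean was 5957 ± 879 CPM (SD, n = 8) in libraries 5 and 6 and 6226 ± 1976 (SD, n = 16) in libraries 1 to 4. Its share was 11.8% ± 1.6 (SD, n = 8) against 10.5% ± 3.3 (SD, n = 16), a ratio of 1.12, with 7 of the 8 above the median of the 16. By library number its mean share was highest at number 3, with 14.3% ± 1.7 (SD, n = 4), and lowest at number 4, with 8.31% ± 1.95 (SD, n = 4). Number 2 was near the latter, with 9.02% ± 2.83 (SD, n = 4). Single libraries overlapped: number 4 ran from 5.61 to 10.03%, number 2 from 6.33 to 12.86% and number 1 from 6.81 to 13.12%. What the library numbers stand for, beyond the lane, is not given in the labels. Without libraries 5 and 6 of every group, the 9 log2 fold changes against control ran from −0.32 to 0.09, with adjusted p values of 0.970 and above in edgeR. The 9 share differences then ran from −1.96 to 1.10 percentage points. Their exact permutation tests could not pass with the few libraries left on lane 7, so those tests decide nothing.

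**Figure D3:**
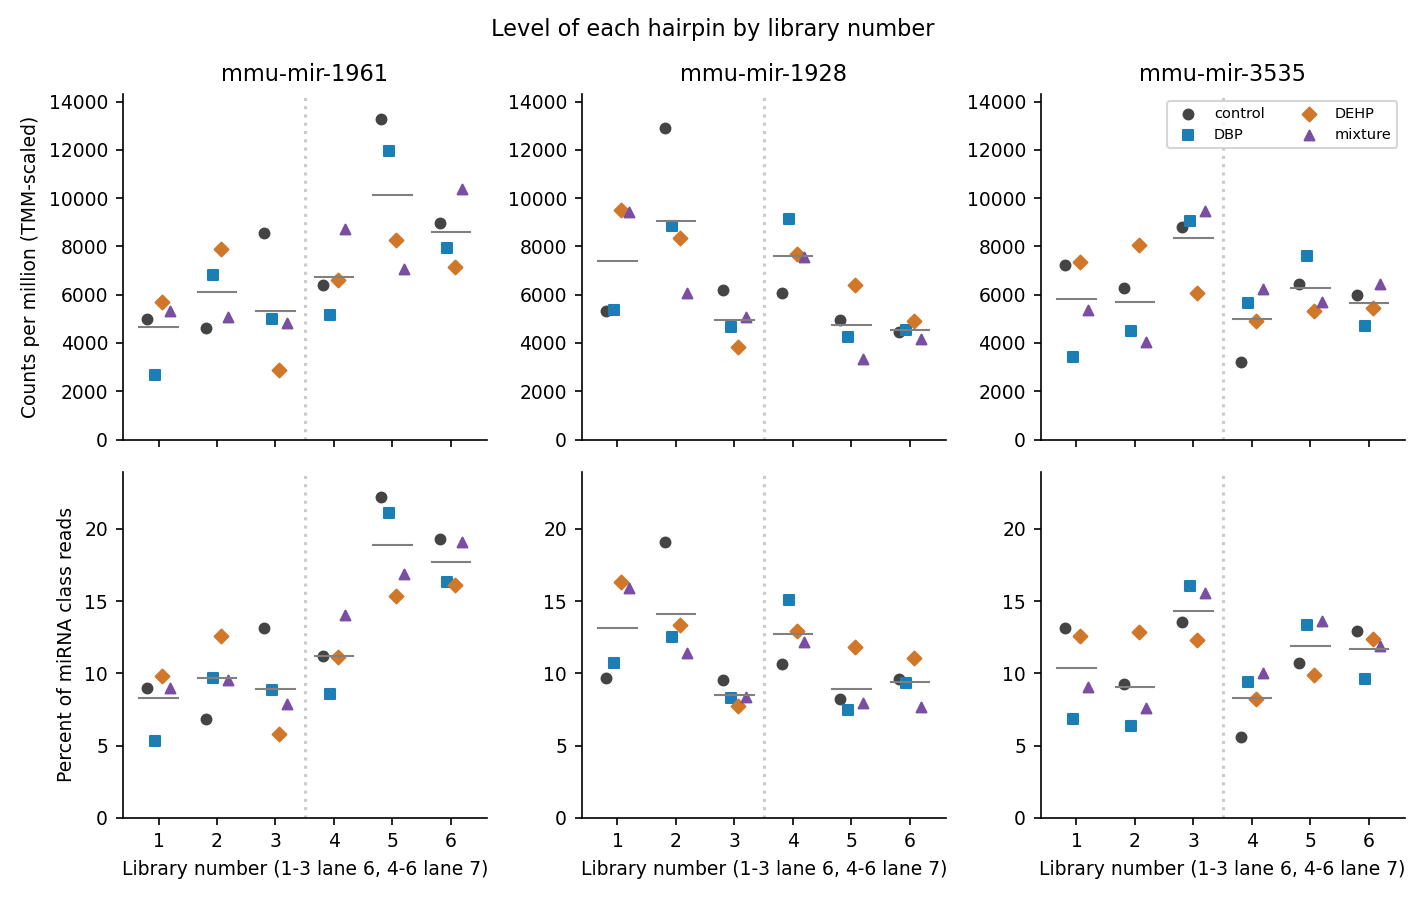
Level of each hairpin in every library, in TMM-scaled CPM (top row) and in percent of miRNA class reads (bottom row), by library number, with the group shown by symbol, the mean of the 4 libraries of a number as a grey line and a dotted line between lanes 6 and 7. All libraries numbered 5 and 6 lie above all others for mmu-mir-1961 in percent, and control replicate 2 is the highest point for mmu-mir-1928.

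No relation among the 3 hairpins passed the correction. In all, 6 relations of log2 CPM were computed, 3 within libraries 1 to 4 (n = 16) and 3 within libraries 5 and 6 (n = 8), kept apart because these sets differ in level. In libraries 1 to 4, mmu-mir-1961 and mmu-mir-1928 had r = 0.42 and rho = 0.39 (permutation p = 0.107 and 0.139, Benjamini-Hochberg 0.322 and 0.416), and r fell to 0.04 without the 2 libraries farthest from the median. mmu-mir-1961 and mmu-mir-3535 had r = 0.25 and rho = 0.03 (permutation p = 0.358 and 0.909, adjusted 0.716 and 0.909). mmu-mir-1928 and mmu-mir-3535 had r = −0.07 and rho = −0.12 (permutation p = 0.793 and 0.663, adjusted 0.820 and 0.844). Without the 2 farthest libraries, r was −0.01 and −0.12 for the last 2 relations.

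In libraries 5 and 6, mmu-mir-1961 and mmu-mir-3535 had r = 0.75 and rho = 0.71 (n = 8, exact permutation p = 0.0291 and 0.0576). These did not pass the correction (Benjamini-Hochberg 0.175 and 0.346), and r was 0.57 without the 2 farthest libraries. The other relations there had r = 0.10 and rho = 0.17 for mmu-mir-1961 with mmu-mir-1928 (exact permutation p = 0.820 and 0.703, adjusted 0.820 and 0.844). For mmu-mir-1928 with mmu-mir-3535 they were r = −0.26 and rho = −0.45 (exact permutation p = 0.555 and 0.267, adjusted 0.820 and 0.535). Without the 2 farthest libraries these r values were 0.11 and −0.42.

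The rows most alike to each hairpin were taken from the miRNA class and from all 6 classes. Likeness was the Pearson r of log2 CPM over 24 libraries after the means of group and library number had been taken out, and it is given with no p. The libraries share depth and scaling, and the partners are the highest of 245 candidates in the miRNA class and of 7453 over the 6 classes, so r values from the larger set are at least as high by construction. For mmu-mir-1961 the most alike miRNA rows were mmu-mir-712 (r = 0.73), mmu-mir-1946a (0.70) and mmu-mir-8115 (0.61). Over the 6 classes they were a circRNA annotated to Dnahc14, a dynein heavy chain gene (0.87), the piRNA piR-mmu-2049207 (0.84) and the lncRNA ENSMUST00000202511.1 (0.83). For mmu-mir-3535 they were mmu-mir-467f (0.77), mmu-mir-6386 (0.73) and mmu-miR-6238 (0.72) among miRNA rows. Over the 6 classes they were piR-mmu-117597 (0.86), piR-mmu-8476620 (0.82) and a circRNA annotated to Htatsf1, a gene of a splicing and transcription factor (0.80). Among themselves the members had r = 0.60 (mmu-mir-1961 with mmu-mir-3535), 0.39 (mmu-mir-1928 with mmu-mir-3535) and 0.36 (mmu-mir-1961 with mmu-mir-1928) on the same scale.

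mmu-mir-1928 had the closest partners, and they were tRNAs. tRNA-Cys-GCA-1-2, tRNA-Cys-GCA-3-2 and tRNA-Cys-GCA-1-1, copies of the cysteine tRNA, each had r = 0.99 with it. Over the 19 cysteine tRNA rows tested the median r was 0.86, with a range of −0.30 to 0.99. No other tRNA family came as near, with a median of 0.66 for initiator methionine (9 rows) and 0.64 for tryptophan (8 rows) as the next 2. The highest r outside the cysteine tRNAs was 0.90, with piR-mmu-405537, and among miRNA rows the most alike were mmu-mir-5112 (0.87), mmu-mir-491 (0.76) and mmu-miR-125b-5p (0.72). The near-identical copies of a tRNA may share reads, in a manner the labels leave unstated, so the 19 rows are not separate observations. The cysteine family was taken up after these r values had been seen.

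The likeness held in the levels themselves. The 54 cysteine tRNA rows together had 1279406 reads, with a lowest, median and highest library of 2409, 4151 and 9265 CPM. Control replicate 2, the library in which mmu-mir-1928 stood highest at 12895 CPM, was also the highest for cysteine tRNA, at 9265 CPM, while the other 5 controls had 2836 to 4529 CPM. Within libraries 1 to 4 (n = 16) the log2 CPM of mmu-mir-1928 and the summed cysteine tRNA had r = 0.95 and rho = 0.94, and r = 0.93 without the 2 libraries farthest from the median. Within libraries 5 and 6 (n = 8) r was 0.91 and rho 0.71, and r was 0.46 without the 2 farthest, so that the relation there rests on those libraries. These are descriptions of a pair picked for its likeness.

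mmu-mir-1928 reads were 118 to 178% of the cysteine tRNA reads of the same library. By group the lowest, median and highest percentages were 137, 149.97 and 178 in controls, 128, 135 and 157 under DBP, 118, 120.3 and 130 under DEHP, and 121, 129 and 138 under the mixture. Every DEHP library was thus below every control library in this ratio, which was chosen after its parts had been seen and was not tested. Neither part was called: of the 19 cysteine tRNA rows, 0 passed for DEHP against control, at an adjusted p under 0.05 that 0% of all features passed. Their median log2 fold change was 0.33 there, beside 0.01 with DBP and 0.06 with the mixture.

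**Figure D4:**
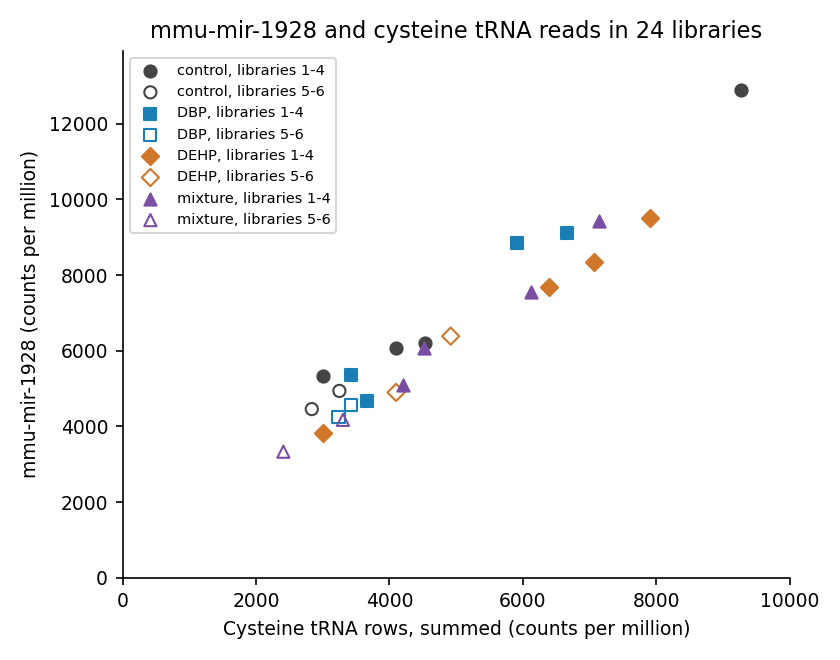
mmu-mir-1928 against the sum of 54 cysteine tRNA rows, both in TMM-scaled CPM, 1 point per library, with the group shown by symbol and libraries 5 and 6 as open symbols. The points lie along a band from 2409 and 3333 CPM to 9265 and 12895 CPM, and the point at the top right is control replicate 2.

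The sequence of mmu-mir-1928 is not unique to its locus. Among 141767 GENCODE M21 transcripts, 29 transcripts of 24 genes held at least 20 bases of it without a mismatch, 17 on the same strand and 12 on the opposite strand. The matches lay between positions 16 and 57 of the hairpin, counted from its 5′ end, and examples are Rab23, a small GTPase gene, and Pcyox1, a gene of prenylcysteine breakdown. On the opposite strand, positions 37 to 45 read GCNNAGTGG, core letters of the A box, the promoter element inside tRNA genes and tRNA-derived repeats. Those letters were searched on both strands after the tRNA likeness had been seen, and 21 of 1005 RefSeq hairpins (2.09%) hold them, 7 of them (0.70%) on the opposite strand. mmu-mir-1961 and mmu-mir-3535 do not hold them. No cytosolic tRNA sequence was used here, so the hairpin was not aligned with cysteine tRNA, and the part of shared reads in the likeness was not tested.

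mmu-mir-3535 overlaps an annotated snoRNA. GENCODE lists the hairpin and the snoRNA as separate genes, while RefSeq gives the hairpin the symbol of the snoRNA gene, Gm24148. The snoRNA gene Gm24148 covers positions 41 to 120 of the hairpin, and the mature miRNA, at positions 41 to 66, begins at the first base of the snoRNA. SnoRNAs of the box C/D class are known for guiding ribose methylation of rRNA, and introns of Ncl host several snoRNAs. The letters UGAUGA of box C occur at positions 47 and 73 and the letters CUGA of box D at positions 25, 53, 61 and 112, on the given strand, the only one searched. Of the 1005 hairpins 27 (2.69%) hold UGAUGA, 432 (43.0%) hold CUGA and 13 (1.29%) hold both. The row of Gm24148 itself, in the class of other RNAs that is not part of the search order, held 0 reads in all 24 libraries. Since the snoRNA lies wholly inside the hairpin and the miRNA class was searched first, its reads could have been counted on the hairpin row. The 0 therefore does not show that the snoRNA was absent. Among snoRNA rows within the span of Ncl, Snora75 and Snord82 held 748 reads (7 to 115 per library) and 232 reads (0 to 34 per library).

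mmu-mir-3535 also shares a stretch with a transcript annotated as rRNA. The stretch is shown because a later version of that transcript is the rRNA row of most reads.

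Stretch of mmu-mir-3535 at positions 92 to 112: UUCCUCUAGAUAGUCAAGUUC

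These 21 bases lie at chr1:86352016-86352036 of GRCm38.p6 on the minus strand. They are also positions 51 to 71 of CT010467.1, a transcript of 1849 bases annotated as rRNA. The match is on the annotated strand of that transcript, and the same stretch matches the lincRNA Gm42418 on its opposite strand. Whether the annotated strand is that of mature rRNA or its complement was not examined, so the hairpin may be complementary to rRNA there. The stretch does not overlap the mature miRNA. Of the 1005 hairpins in the RefSeq table mmu-mir-3535 is the only one with a match of 20 or more bases to that transcript. The median longest match was 9 bases, and mmu-mir-1961 and mmu-mir-1928 had 8 and 9. The levels did not follow each other: the likeness r of mmu-mir-3535 with that rRNA row was −0.13, beside 0.37 for mmu-mir-1961 and 0.18 for mmu-mir-1928. How reads of the stretch were assigned is not stated, although the miRNA class was searched before rRNA.

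For mmu-mir-1961 no such companion was found among the GENCODE transcripts, a search without cytosolic tRNA sequences. Apart from the annotated miRNA itself, none of the 20-base stretches of mmu-mir-1961 occurred in the 141767 transcripts on either strand. The mature miRNA of mmu-mir-1961, at positions 82 to 98, lies on the 3′ arm of the hairpin, where 12 of 17 bases are paired in the predicted fold. In the fold of mmu-mir-1928 14 of 17 mature bases are paired, and in that of mmu-mir-3535 20 of 26.

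Predicted folds of the 3 were weaker than those of most hairpins. The minimum free energy was −36.5 kcal/mol for mmu-mir-1961, −25.7 kcal/mol for mmu-mir-1928 and −38.3 kcal/mol for mmu-mir-3535, which have different lengths. Of the 1005 RefSeq hairpins 79.9%, 60.1% and 95.1% had a stronger fold per base, in the same order. GC content was 44.6%, 50.7% and 37.4%, beside a median of 51.7%.

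**Figure D5:**
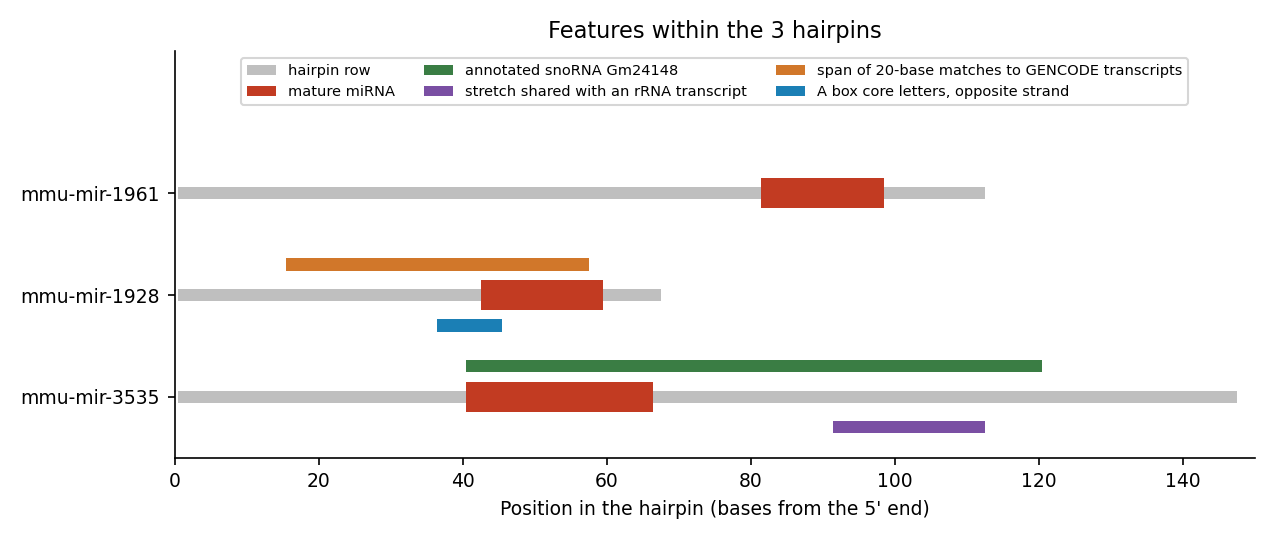
Map of the 3 hairpins to scale, in bases from the 5′ end, with the mature miRNA in red. Also drawn are the span of 20-base transcript matches and the A box core letters of mmu-mir-1928. For mmu-mir-3535 the snoRNA Gm24148 and the stretch shared with a transcript annotated as rRNA are drawn. The mature miRNA of mmu-mir-3535 begins where the snoRNA begins, at position 41.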

How the data were processed

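The authors deposited raw read counts per reference sequence, in 7 tables for each library. The submitters' processing notes name cutadapt, STAR 2.7.6a and edgeR. Per the design text, STAR aligned reads to 1 class after another, with miRNA first, then tRNA, piRNA, rRNA, circRNA and lncRNA. The sources used here do not give the build, the counting strand or the treatment of multiple matches. The row that names no feature held 0 reads.

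The 6 classes were joined and fitted with edgeR 4.0.16 in R 4.3.3 (TMM, filterByExpr, terms for group and lane, quasi-likelihood test, 19 residual degrees of freedom, tested on simulated data). Correlations used log2 CPM with a prior count of 2 and 100000 resamples, or exact enumeration at n = 8, with scipy 1.17.1 in Python 3.11.15. Alternatives were DESeq2 1.42.0, plain totals, no filter, the miRNA tables alone, no lane term, each lane, other totals for the shares, libraries 5 and 6 left out or given a term, the replicate number as a block, and each library left out. Folds came from RNAfold 2.7.2, and sequences and loci from RefSeq on GRCm38.p6 and GENCODE M21.

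Named beside the members were the hairpins ranked 4 to 6, seed sharers, and the 3 most alike rows within the miRNA class and over the 6 classes. Members, lists and tests were chosen with earlier results of these data known. Intervals and limits on a count of 0 cover counting error or the spread between libraries only, and reads without molecular identifiers are not independent molecules.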

Additional observations from a re-analysis of the deposited data

Results flagged for a closer look

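mmu-mir-1928 in control replicate 2 stood apart from the other 5 control libraries, at 12894.8 CPM and 19.1% of miRNA class reads. The gap to the next control, divided by the range of the group, exceeded Dixon's critical value for 6 libraries on both scales. Of the 24 sets of 6 libraries examined (3 hairpins, 4 groups, 2 scales) these were the 2 that did so, and both are the same library. About 1 in 20 such sets is marked by chance. Cysteine tRNA was highest in that library as well, at 9265 CPM, and no explanation was tested.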

How the results depend on the processing

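None of the 30 tested values of the members passed under any alternative, with a smallest adjusted p of 0.765 for fold changes and 0.709 for shares. Directions turned in 35 of 264 recomputed values over 12 alternatives. The log2 values that turned had main estimates of at most 0.123 in size and reached 0.31 under an alternative, and the cause was not tested.

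Without a filter on low counts, features at an adjusted p under 0.05 numbered 71 for DBP, 6 for DEHP, 5 for the mixture, 3 for DBP against DEHP, 17 for mixture against DBP, 3 for mixture against DEHP and 20 for the interaction, with no member among them. Those meeting the design text's criterion then numbered 606, 373 and 332 for DBP, DEHP and the mixture. On lane 6 they were 262 for DBP and 90 for the mixture, and on lane 7 17 and 20. They were 0 in each with miRNA tables fitted alone, 19 for DEHP with plain totals and 62 for the mixture without libraries 5 and 6. Leaving out a library gave 24 to 165 for DBP, 22 to 62 for DEHP and 21 to 58 for the mixture, and 0 to 0 at an adjusted p under 0.05. Control replicate 4 moved all 3 counts (165, 62 and 58 without it), control replicate 2 and DBP replicate 4 that for DBP (24 and 111), and mixture replicate 5 that for the mixture (50).

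For mmu-mir-1928, log2 changes that turned were DBP on lane 7 (0.20), DEHP on lane 6 (−0.17), without libraries 5 and 6 (−0.043) and with miRNA tables alone (−0.068), the interaction on lane 6 (0.31) and without libraries 5 and 6 (0.084), and mixture against DBP in the same 2 settings (0.14 and 0.041). For mmu-mir-1961 they were DBP against DEHP with DESeq2 (0.00011), on lane 7 (0.20), with miRNA tables alone (0.13) and without a lane term (0.040), mixture against DBP with miRNA tables alone (−0.022), and mixture against DEHP on lane 6 (−0.12) and with plain totals (−0.00043).

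For mmu-mir-3535 they were DBP against DEHP on lane 7 (0.20) and with miRNA tables alone (0.047), DBP on lane 7 (0.20), and DEHP without libraries 5 and 6 (0.090) and with plain totals (0.0048). Mixture against DEHP turned on lane 6 (−0.20), without libraries 5 and 6 (−0.022) and with plain totals (−0.034), and mixture against control with DESeq2 (0.015), on lane 7 (0.24), without libraries 5 and 6 (0.068) and with a term for them (0.010). Shares that turned, in percentage points, were mmu-mir-1928 for DBP on lane 7 (1.14) and DEHP on lane 6 (−0.30), mmu-mir-1961 for the mixture without libraries 5 and 6 (0.060), and mmu-mir-3535 for DBP on lane 7 (1.04) and for the mixture on lane 6 (−1.25) and over the 6 classes (−0.011).

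With a library left out, log2 changes of mmu-mir-1928 ran from −0.30 to 0.15 (DBP), −0.025 to 0.32 (DEHP), −0.29 to 0.087 (mixture), −0.38 to 0.089 (interaction) and −0.22 to 0.16 (mixture against DBP). Those of mmu-mir-1961 kept their sign against control but moved by over 1.5 times, from −0.41 to −0.12 (DBP), −0.43 to −0.11 (DEHP) and −0.29 to −0.051 (mixture), the weakest without DBP replicate 1 and, for the other 2, control replicate 3. They ran from −0.16 to 0.17 (DBP against DEHP), −0.068 to 0.23 and −0.057 to 0.24 (mixture against DBP and DEHP). Those of mmu-mir-3535 ran from −0.27 to 0.045 (DBP), −0.15 to 0.073 (DEHP), −0.14 to 0.12 (mixture), −0.25 to 0.064 (DBP against DEHP), −0.040 to 0.24 and −0.12 to 0.14 (mixture against DBP and DEHP) and −0.021 to 0.26 (interaction). Shares ran from −1.46 to 1.03 (DBP) and −1.61 to 1.05 (mixture) for mmu-mir-1928, −3.89 to −0.28, −3.18 to −0.11 and −2.23 to 0.83 (DBP, DEHP and mixture, each highest without control replicate 5) for mmu-mir-1961, and −1.76 to 0.17, −0.55 to 1.13 and −0.62 to 1.16 (DBP, DEHP and mixture) for mmu-mir-3535.

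With the replicate number as a replicate block, DEHP (0.018) and mixture against DEHP (−0.033) turned for mmu-mir-3535, no member passed, and features meeting the design text's criterion numbered 58, 32 and 40. No label says that a number marks a shared animal or day. Of 36 same-numbered pairs 28 had a correlation of deviations over 0.1 (median 0.28), against 66 of 180 other pairs (median −0.073), and 12 of 24 libraries were most like a library of their own number. Only group means had been taken out of these deviations. Same-numbered pairs always share a lane, and the other pairs include pairs across lanes, so number and lane cannot be told apart here. This is at most a hint that libraries of a number share something. Not every pair exceeded 0.1, and the fit without the block was kept. For mmu-mir-1928 with DBP against control, the SE was 0.31 in that fit and 0.23 with the block.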
